A study of Mus musculus with 8 samples.

Results

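Transcript levels were compared between round spermatids that carried the MIWI knock-in allele beside a null allele (MIWI -/KI) and round spermatids that carried it beside a wild-type allele (MIWI +/KI). The comparison was defined by genotype in the sample titles, with 2 arrays labelled biological replicates for each, 4 of the 8 arrays of the series. All mice were adult C57BL/6 without treatment. The knock-in allele is common to both groups, so the groups differ in whether the second Piwil1 allele is null or wild-type. What the knock-in changes is not in the labels; in the study of this series it carries a change in the catalytic site of MIWI. Cells were separated on a gradient of serum albumin and the spermatids of the respective fractions were combined for RNA. The number of mice behind a replicate is not stated in the labels, and p-values therefore speak only of the spread among these cell preparations, which may be technical. The other 4 arrays, MIWI +/- (wild-type beside null) and MIWI -/- (null only), share no sample with this comparison and gave a second comparison in which a wild-type allele is removed.

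MIWI, the product of Piwil1, is a PIWI protein of meiotic and early haploid male germ cells. It binds the small piRNAs that these cells make in large amounts and can cut RNAs that pair with them, and male mice without it stop sperm formation at the round spermatid stage. After that stage spermatids replace their histones by transition proteins and then protamines, build the tail and shut down transcription, so that many transcripts of late sperm formation are made early and stored.

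Values are linear intensities, 1 for each transcript cluster of the array. Differences are log2 values, MIWI -/KI minus MIWI +/KI, and a gene was called where limma's Benjamini-Hochberg adjusted p over all clusters was under 0.05. Piwil1 stood at 680 and 749 on the MIWI +/KI arrays and at 672 and 696 on the MIWI -/KI arrays. These values overlapped, with a difference of -0.06 (SE 0.17, adjusted p = 0.888), and the sources used here do not give where the probes lie relative to the null allele, so this level does not check the labels. The same cluster stood at 389 and 371 in MIWI +/- and at 196 and 151 in MIWI -/-, a fall of its own (difference -1.14, SE 0.17, adjusted p = 0.00771), and the test of the difference between the 2 differences did not pass (1.08, SE 0.24, adjusted p = 0.142). All 50 measured acrosome genes lay above the array median intensity in both groups. Of the 29 measured genes of spermatid chromatin condensation, 29 did so in MIWI +/KI and 28 in MIWI -/KI. So did 39 of 43 spermatocyte markers in MIWI +/KI and 40 in MIWI -/KI. Such levels therefore do not tell spermatids from spermatocytes and do not check the cell label.

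The MIWI -/KI arrays differed from each other more than those of any other genotype. Their log2 values correlated with r = 0.970 and 3.93% of clusters lay over 2-fold apart, against r = 0.995 and 0.13% for the MIWI +/KI arrays. MIWI -/KI replicate 1 correlated more with both MIWI +/KI arrays (r = 0.982 and 0.980) than with its own replicate. Of the 227 genes called higher, 172 were higher in replicate 2 than in replicate 1, against 39.3% of all genes. Of the 258 called lower, 171 were lower in replicate 2 and 87 higher, so that the falls lay nearer to that share of all genes than the rises did. Marker lists of other testicular cells moved with the groups to different degrees. Summed over 43 spermatocyte markers, intensity was 29166 and 29810 in MIWI +/KI, 31920 in MIWI -/KI replicate 1 and 35361 in replicate 2. Summed over 38 Sertoli cell markers it was 5235 and 6025 in MIWI +/KI, 4820 in MIWI -/KI replicate 1 and 4264 in replicate 2. No marker is at 0 on these arrays, since summarised intensities have no zero, and the part of these shifts in the results was not tested. In such bulk samples fewer cells of a type and less RNA per cell cannot be told apart.

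Of 19938 genes, 485 were called (2.43%), 227 higher (1.14%) and 258 lower (1.29%) in MIWI -/KI. The falls were the larger changes, with a median fold of 2.46 against 2.10 for the rises, and 47 genes fell by at least 4-fold while 8 rose by as much. The number of calls rested on single arrays, each of which was left out in turn ("without either array" below stands for each of a pair left out singly). Dropping MIWI +/KI replicate 1 left 42 calls and dropping its replicate 2 left 45. Dropping MIWI -/KI replicate 1 raised them to 2664, and dropping its replicate 2 left 254. Leaving out an array of the other genotypes changes only the shared estimate of the spread: 196 genes were called without either MIWI +/- array, while dropping MIWI -/- replicate 1 or 2 gave 574 or 569. No called gene changed its direction under any of the 19 alternatives tried, and 5 rises and 35 falls passed the threshold in every one of them. Those 40 genes are described first.

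**Figure D1:**
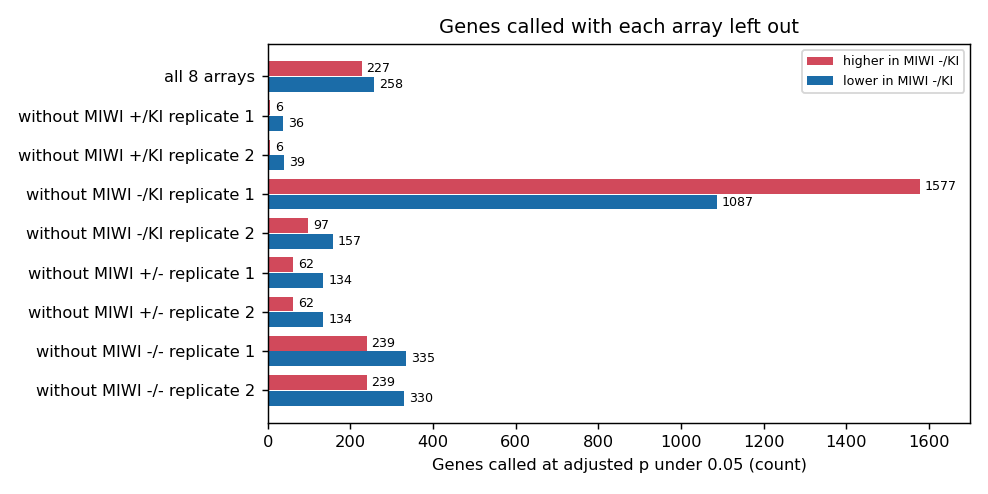
Number of genes called at adjusted p under 0.05 (x axis, count) in MIWI -/KI against MIWI +/KI, with all 8 arrays and with each array left out in turn; red bars are genes higher and blue bars genes lower in MIWI -/KI. Counts fall to 6 rises and 36 or 39 falls without 1 MIWI +/KI array, and reach 1577 rises and 1087 falls without MIWI -/KI replicate 1.

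The largest fall was in Itpr3os, a transcript from the strand opposite Itpr3, the gene of an inositol trisphosphate receptor. Its intensity was 1054 and 834 in MIWI +/KI and 46.2 and 48.8 in MIWI -/KI, a difference of -4.30 (SE 0.19, 19.8-fold lower, adjusted p = 0.000557). Both arrays without a wild-type allele lay below the median intensity of an array, where the signal of a transcript that is absent cannot be told from a low level, so this and the following folds are those of the measured signal. Itpr3 itself lay at 171 and 157 against 178 and 141, with overlapping arrays (difference -0.05, SE 0.17, adjusted p = 0.911). Its antisense partner fell without a called change of Itpr3.

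Among the kallikrein 1-related peptidases, serine proteases encoded by a cluster of near-identical genes, Klk1b5 and Klk1b8 fell. Klk1b5 was at 318 and 248 in MIWI +/KI and at 23.99 and 26.9 in MIWI -/KI (difference -3.47, SE 0.23, 11.1-fold lower, adjusted p = 0.000800). Klk1b8 was at 321 and 276 against 52.0 and 52.9 (difference -2.50, SE 0.17, adjusted p = 0.000837). In neither gene did the groups overlap. Of the 9 measured family members 33.3% were called, against 2.43% of all genes. These 2 fell, and Klk1b24 was the 1 that was called higher, at 30.3 and 39.9 against 88.1 and 122 (difference 1.58, SE 0.21, adjusted p = 0.0135). Unlike the falls, it missed the threshold when MIWI +/KI replicate 1 (adjusted p = 0.172) or 2 (0.0735) was left out. How far probes of these near-identical genes read each other was not examined.

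Several of the genes that fell in every alternative encode enzymes or membrane proteins with known tasks in other tissues. Mlkl, whose protein kills cells by necroptosis, was at 212 and 270 in MIWI +/KI and at 34.2 and 36.2 in MIWI -/KI (difference -2.77, SE 0.18, adjusted p = 0.000800). Phospho1, a phosphatase known from bone mineralisation, was at 646 and 579 against 85.9 and 75.5 (difference -2.92, SE 0.21). Both MIWI -/KI arrays were low in each of these genes, and no array of one group reached the other. Car2, a carbonic anhydrase, went from 662 and 669 to 145 and 145 (difference -2.20, SE 0.14, adjusted p = 0.000800). Agpat2, an acyltransferase of lipid synthesis, went from 852 and 772 to 151 and 144 (difference -2.46, SE 0.16). Values within each pair lay close for Car2 and Agpat2. These genes were chosen by their calls, which favour a small spread, so the closeness says nothing further.

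Genes of cell shape and of the sperm head and tail were also among them. Spem2 was at 1662 and 1617 in MIWI +/KI and at 322 and 243 in MIWI -/KI (difference -2.55, SE 0.19, adjusted p = 0.00120). Its neighbour Spem1, which is needed to remove the cytoplasm of late spermatids, was called lower as well, at 1098 and 988 against 320 and 196 (difference -2.06, SE 0.24, adjusted p = 0.00794); it was looked up because the pair lies side by side. Mical3, an enzyme that acts on actin filaments, fell from 1137 and 1115 to 189 and 166 (difference -2.67, SE 0.14). Its difference ranged from -2.76 to -1.58 over the 19 alternatives, so the size of this fall depends on the processing. The actin-binding gene Clmn fell from 1434 and 1533 to 258 and 282 (difference -2.46, SE 0.21). Acte1, an actin gene of the testis, was at 783 and 705 against 125 and 153 (difference -2.43, SE 0.16, adjusted p = 0.000837). In all of these the MIWI -/KI arrays lay below both MIWI +/KI arrays. Herpud1, a gene of protein quality control at the endoplasmic reticulum, was at 1396 and 1326 in MIWI +/KI and at 302 and 224 in MIWI -/KI (difference -2.39, SE 0.18, adjusted p = 0.00144).

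Bpifa3, of the family of lipid-binding BPI fold proteins, fell from 809.5 and 728 to 117 and 111 (difference -2.76, SE 0.18). Tlcd4 fell from 901 and 845 to 116 and 146 (difference -2.74, SE 0.16), and Dydc2 from 565 and 433 to 86.1 and 96.9 (difference -2.44, SE 0.20). The other genes that fell in every alternative, picked out for that after their values were seen, include Oxct2a, Prm2 and Gm614, described below with their groups, and Odf3b, named for the outer dense fibres (difference -2.40), the quinone reductase gene Nqo2 (-1.98) and Usp50 (-2.14), which belongs to the ubiquitin-specific protease family. Among them were also 1700012A03Rik, Gm5893, 1700009J07Rik, Ubqlnl, Efcab1, Lexm, Noxred1, Bpifa6, Tex46, Gm136, Wbscr25, Trp53tg5, Tex44 and Ttc7. Their differences ranged from -3.41 for 1700012A03Rik to -1.98 for Nqo2. All of these genes fell more than the median called fall of -1.30.

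The remaining genes of the 15 largest falls each lost the call in 1 to 3 alternatives. Nudt16l2 was at 602 and 512 in MIWI +/KI and 101 and 68.8 in MIWI -/KI (difference -2.73, SE 0.25, adjusted p = 0.00293, and 0.0554 without MIWI +/KI replicate 1). Azin2, which binds the antizymes that control polyamine synthesis, was at 1110 and 1224 against 276 and 148 (difference -2.53, SE 0.29, adjusted p = 0.00817). The 2 MIWI -/KI arrays of Azin2 lay apart, yet both were under the lowest MIWI +/KI array.

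**Figure D2:**
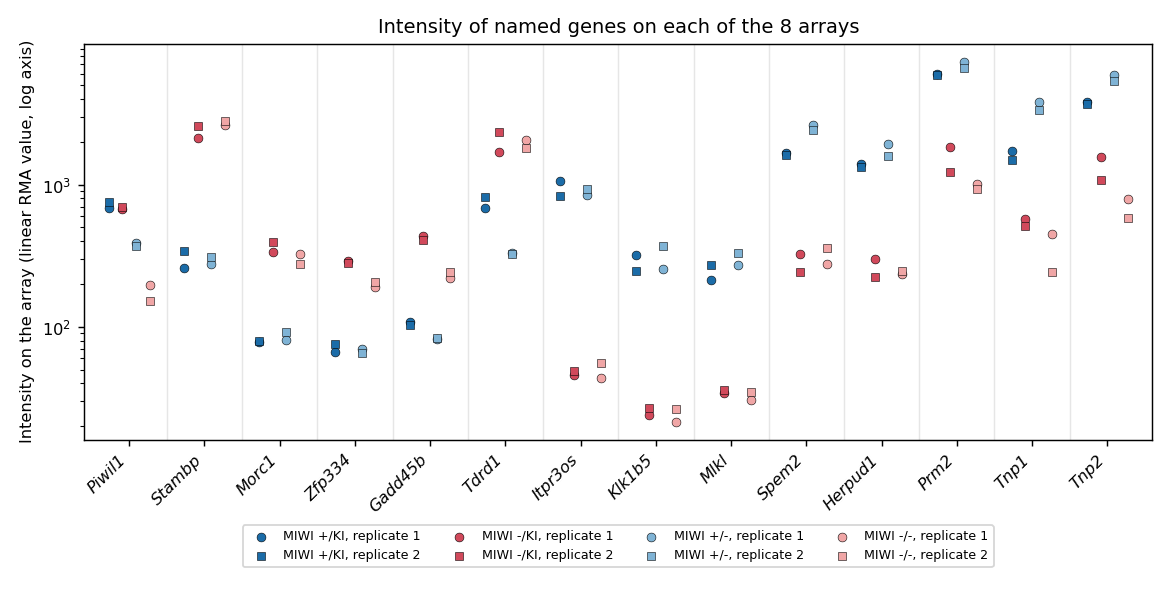
Intensity (y axis, linear RMA value on a log axis) of 14 genes on each of the 8 arrays; colours are genotypes, circles replicate 1 and squares replicate 2. Piwil1 overlaps between MIWI +/KI and MIWI -/KI (dark blue and dark red), Stambp, Morc1, Zfp334, Gadd45b and Tdrd1 lie higher in both MIWI -/KI arrays, and Itpr3os to Tnp2 lie lower in both.

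The largest rise was in Stambp, which encodes a deubiquitinase of endosomes. It was at 258 and 341 in MIWI +/KI and at 2118 and 2596 in MIWI -/KI, a difference of 2.98 (SE 0.18, 7.91-fold higher, adjusted p = 0.000800). The groups were far apart, and the MIWI -/- arrays, at 2627 and 2798, lay at a like level. Morc1, which male germ cells need to silence retrotransposons, was at 78.0 and 79.9 in MIWI +/KI and at 333 and 395 in MIWI -/KI (difference 2.20, SE 0.17, adjusted p = 0.00147). Zfp334, a zinc finger gene, was at 67.0 and 75.1 against 291 and 283 (difference 2.02, SE 0.15). In both genes all MIWI +/KI arrays stood near the array medians of 71.5 and 71.6 and all MIWI -/KI arrays well above it. Gadd45b, a gene induced by stress and DNA damage, was at 107 and 103 against 434 and 406 (difference 2.00, SE 0.15, adjusted p = 0.00120). With the uncharacterised locus 4930465K10Rik (difference 2.51), these were the 5 rises that passed in every alternative.

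Of the other large rises, those of Tfrc, Fastkd1 and Exoc6 were uneven between the MIWI -/KI arrays. Tfrc, the transferrin receptor that takes up iron, was at 82.9 and 84.4 in MIWI +/KI and at 405 and 603 in MIWI -/KI (difference 2.56, SE 0.24, adjusted p = 0.00312, and 0.0554 without MIWI +/KI replicate 1). Fastkd1, a gene of mitochondrial RNA metabolism, was at 84.6 and 97.0 against 349 and 608 (difference 2.35, SE 0.26, adjusted p = 0.00604). Exoc6, of the exocyst that tethers vesicles to the cell surface, was at 73.1 and 70.8 against 257 and 484 (difference 2.29, SE 0.27, adjusted p = 0.00855). In these genes MIWI -/KI replicate 2 was the higher array, and replicate 1 still lay above both MIWI +/KI arrays. The calls of Fastkd1 and Exoc6 were lost without MIWI +/KI replicate 1 or 2, with adjusted p of up to 0.0938 and 0.102. Mcm8, a helicase of meiotic recombination, was at 137 and 123 against 436 and 553 (difference 1.92, SE 0.17, adjusted p = 0.00260, and 0.0555 without MIWI +/KI replicate 2). Tex101, a surface protein of germ cells, was more even, at 556 and 493 against 2021 and 1779 (difference 1.86, SE 0.19, adjusted p = 0.00514). Tex101 missed the threshold when MIWI +/KI replicate 1 (adjusted p = 0.0596) or 2 (0.0722) was left out.

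Of the remaining genes among the 15 largest rises, Zfp729b had a difference of 2.32, Ttpa, the vitamin E transfer protein gene, 1.98, Usp51, a deubiquitinase gene, 1.95, Arhgap20 1.85, and Mtif2, of mitochondrial translation initiation, 1.84. Each lost its call without MIWI +/KI replicate 1 or 2, with adjusted p of up to 0.223, 0.112, 0.107, 0.125 and 0.114, and Zfp729b also without either MIWI +/- array. The microRNA locus Mir297b was at 51.4 and 38.0 in MIWI +/KI and at 180 and 148 in MIWI -/KI (difference 1.89, SE 0.28, adjusted p = 0.0197). It differed from the other large rises in the comparison of the null genotypes, where the MIWI -/- arrays, at 54.6 and 45.04, were not above the MIWI +/- arrays, at 86.7 and 50.6. The Mir297b call was lost without either MIWI +/KI array and without MIWI -/KI replicate 2, with adjusted p of up to 0.183.

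Some of the genes that package the haploid genome fell. Of 29 measured genes of spermatid chromatin condensation, 8 fell and 0 rose, 27.6% against 2.43% of all genes, and the list's median difference was -0.30 against -0.03 over all genes, with 9 members above 0 and 20 below. The list had been chosen with earlier results of these data known, so its direction is not independent evidence. Prm2, the gene of a protamine, was at 5987 and 5897 in MIWI +/KI and at 1837 and 1233 in MIWI -/KI (difference -1.98, SE 0.18, adjusted p = 0.00260). Tnp1, which encodes a transition protein that takes the place of histones before the protamines do, was at 1717 and 1483 against 574 and 511 (difference -1.56, SE 0.26, adjusted p = 0.0304). Tnp2, of the second transition protein, was at 3834 and 3702 against 1558 and 1074 (difference -1.54, SE 0.20, adjusted p = 0.0124). The groups did not overlap in any of them, and a large signal remained in MIWI -/KI. Tssk6, a kinase needed for the exchange of histones, was at 256 and 235 against 71.7 and 44.2 (difference -2.13, SE 0.27, adjusted p = 0.0112), and Gm614 was at 488 and 625 against 122 and 98.3 (difference -2.33, SE 0.21, adjusted p = 0.00260). Gm614 counts among the 8 falls but bears the symbol of an uncharacterised locus, and whether it acts in chromatin condensation was not examined. H1f7 and H2bl1, histone genes of spermatids, and Prm3 were the other 3 members called. Prm1, the gene of the other protamine, was at 2172 and 2045 against 963 and 619 and missed the threshold (difference -1.45, SE 0.31, adjusted p = 0.0640); it was looked up because Prm2 was called. Without MIWI +/KI replicate 1 or 2 the count of falls was 2, Prm2 and Gm614, and it was 5 without either MIWI +/- array, while the counts without a MIWI -/KI array were 11 and 6. Tnp1 had an adjusted p of 0.260 and 0.188 without MIWI +/KI replicates 1 and 2, Tnp2 of 0.152 and 0.126, and Tssk6 of 0.138 and 0.107.

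CREM is a transcription factor that switches on many genes of haploid germ cells through the cAMP response element. Of 31 measured genes that depend on it, 10 fell and 0 rose, with a median of -0.22. That is 32.3% called, against 2.43% of all genes. Of the 10, 3 (Prm2, Tnp1 and Tnp2) are shared with the chromatin list. Crem itself was at 883 and 848 in MIWI +/KI and at 875 and 1103 in MIWI -/KI, with no called change (difference 0.18, SE 0.15, adjusted p = 0.599). Spata18 was at 2973 and 2883 against 1017 and 1132 (difference -1.45, SE 0.13, adjusted p = 0.00260). Hspa1l, a heat shock protein gene of spermatids, was at 2109 and 2070 against 752 and 855 (difference -1.38, SE 0.15, adjusted p = 0.00590). The arrays of a group were close to each other in both genes and the groups did not overlap. The other falls were in Gapdhs, a glycolytic enzyme of sperm, Ace, the angiotensin-converting enzyme, Tssk3, Akap4 and Odf1. The 10 falls became 1 without either MIWI +/KI array, 5 without MIWI -/KI replicate 2 and 5 without either MIWI +/- array, and 14 without MIWI -/KI replicate 1. Spata18 missed the threshold without MIWI +/KI replicate 1 (adjusted p = 0.0596) or 2 (0.0524), and so did Hspa1l (0.104 and 0.0849). None of the 29 measured regulators of haploid transcription, Crem among them, was called in either direction; without MIWI -/KI replicate 1, 4 rose and 2 fell, and without either MIWI -/- array 3 fell.

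The cAMP response element was looked for in the promoters of called genes because of this list. The windows reach from 250 bases before to 50 bases after each RefSeq start site in assembly GRCm38.p6 and were found for 15614 of the 19938 genes. On either strand, TGACGTCA stood in at least 1 window of 12 of 175 genes called higher (6.86%), 11 of 206 called lower (5.34%) and 424 of all 15614 (2.72%). Its first letters TGACG, which lie within it, stood in 38.9%, 34.5% and 28.0%. Both directions of change held the element more often than all genes did, with no test made of it. Of the 35 genes that fell in every alternative, 29 had a window and 0 of them held the full element. At the 2.72% of all genes, 29 genes are too few for that 0 to be read as a lack. Prm2, Tnp1, Tnp2 and Prm1 did not hold the shorter TGACG in their windows, as was so for most genes. Shown here, with the element in capitals, are the windows of 4 called genes that hold it and have 1 window. They have the 2 largest falls (Pdzd8 and Neurl1a) and the 2 largest rises (Abitram and Gusb) among such genes. Genes of 1 chromosome had been left out of this choice, so these need not be the largest changes of all. The place of the element in the rest of the 12 and 11 called genes was not examined. No link between its place and the direction of change can therefore be read from these 4 windows. Pdzd8 lies at chr19:59345731-59346030 on the minus strand, Neurl1a at chr19:47178570-47178869 on the plus strand, Abitram at chr4:56802079-56802378 on the plus strand and Gusb at chr5:130003000-130003299 on the minus strand. Each is written 5′ to 3′ along its gene.
Pdzd8: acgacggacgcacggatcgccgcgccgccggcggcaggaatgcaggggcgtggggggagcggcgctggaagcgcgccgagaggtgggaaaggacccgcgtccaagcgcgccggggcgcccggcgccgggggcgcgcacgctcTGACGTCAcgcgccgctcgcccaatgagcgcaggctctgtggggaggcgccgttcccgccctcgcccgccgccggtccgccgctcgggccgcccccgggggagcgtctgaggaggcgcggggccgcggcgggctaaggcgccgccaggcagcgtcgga
Neurl1a: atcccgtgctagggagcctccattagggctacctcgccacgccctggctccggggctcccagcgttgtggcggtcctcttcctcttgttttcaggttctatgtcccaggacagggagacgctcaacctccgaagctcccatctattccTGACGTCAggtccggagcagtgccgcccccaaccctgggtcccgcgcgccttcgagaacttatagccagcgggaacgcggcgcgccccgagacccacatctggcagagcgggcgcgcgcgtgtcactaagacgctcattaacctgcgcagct
Abitram: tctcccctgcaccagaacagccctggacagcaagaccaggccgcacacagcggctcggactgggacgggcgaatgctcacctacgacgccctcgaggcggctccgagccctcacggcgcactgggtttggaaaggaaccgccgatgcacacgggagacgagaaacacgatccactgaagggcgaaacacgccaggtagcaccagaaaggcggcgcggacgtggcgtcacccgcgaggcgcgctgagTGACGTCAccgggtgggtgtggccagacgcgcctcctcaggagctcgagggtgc
Gusb: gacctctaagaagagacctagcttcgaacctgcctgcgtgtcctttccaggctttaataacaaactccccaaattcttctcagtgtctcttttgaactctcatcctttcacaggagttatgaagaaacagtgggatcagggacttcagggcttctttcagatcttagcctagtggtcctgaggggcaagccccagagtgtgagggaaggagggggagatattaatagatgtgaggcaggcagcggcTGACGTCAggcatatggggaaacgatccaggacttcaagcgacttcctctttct
The element begins 108 and 102 bases before the start site in Pdzd8 and Neurl1a, and 4 bases before it in Abitram and in Gusb. Pdzd8, which ties the endoplasmic reticulum to other organelles, was at 1933 and 1989 in MIWI +/KI and 595 and 561 in MIWI -/KI (difference -1.76, SE 0.17, adjusted p = 0.00421), and Neurl1a at 227 and 243 against 118 and 84.7 (difference -1.23, SE 0.21, adjusted p = 0.0323). Abitram was at 150 and 166 against 460 and 425 (difference 1.49, SE 0.18, adjusted p = 0.00861), and Gusb, a lysosomal enzyme gene, at 66.8 and 64.3 against 195 and 139 (difference 1.33, SE 0.19, adjusted p = 0.0166). These 4 genes were picked for the element after their values were known. In total 13 letter strings were searched on both strands of the same windows, and the shorter ones lie in part within longer ones. Besides TGACGTCA, strings of the cAMP response element were TGACGTAA, found in 0.685% of all genes, TGACGCA in 3.13%, TGACGT in 10.2% and TGACG. Strings of the RFX motif were GTTGCCATG in 0.794% and GTTGCC in 14%, and those of the MYB motif were CAGTTG in 13.8% and CAGTT in 45.2%. Common promoter strings were TATAAA in 13.6%, CACGTG in 9.5%, CCAAT in 41.7% and GGGCGG in 52.9%. GGGCGG stood in 58.9% of genes called higher and 48.5% of those called lower, CCAAT in 41.1% and 37.9%, and CAGTTG in 9.71% and 17.5%.

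Among genes of the sperm tail, a few of those for the fibres passed the test and none of those for the axoneme. Of 35 measured genes of outer dense fibres and fibrous sheath, 5 fell and 0 rose (14.3% called), while the median of -0.05 was near that of all genes and 15 members lay above 0. Odf3b, which fell in every alternative, is not in this list or its counts. Fscn3, an actin-bundling gene of the testis, was at 951 and 907 in MIWI +/KI and at 216 and 130 in MIWI -/KI (difference -2.47, SE 0.26, adjusted p = 0.00557). Akap4, the main scaffold of the fibrous sheath, was at 1995 and 2116 against 1068 and 1167 (difference -0.88, SE 0.14, adjusted p = 0.0246). Odf1, a chief fibre protein, was at 2784 and 2808 against 1801 and 1889 (difference -0.60, SE 0.11, adjusted p = 0.0441). The changes of Akap4 and Odf1 were thus under 2-fold, and the groups did not overlap. Oaz3, the antizyme of spermatids (difference -0.85), and Spata18 were the other members called. No fall was called without MIWI +/KI replicate 1 or 2, 3 without MIWI -/KI replicate 2, 2 without either MIWI +/- array and 10 without MIWI -/KI replicate 1; Fscn3 then had adjusted p of 0.0812 and 0.0688, Akap4 0.228 and 0.276 and Odf1 0.364 and 0.399 without the MIWI +/KI arrays. Of 53 measured axoneme and flagellar transport genes, 0 were called, while 47 had differences above 0 and the median was 0.21. With 2.43% of all genes called, 0 of 53 is near that share. In MIWI -/- against MIWI +/-, 18 of the 53 were called higher and 0 lower, with a median of 0.41. Of the fibre list 0 were called higher and 15 lower there, with a median of -0.44. In the knock-in pair the smallest p of the axoneme list was that of Dnah7b, a dynein heavy chain, at 927 and 973 against 1361 and 1994 (difference 0.79, SE 0.19, adjusted p = 0.0907). Without MIWI -/KI replicate 1, 8 axoneme genes were called higher.

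Kinases, energy metabolism and chaperones of spermatids held single calls, most of them falls. The shares called that follow stand beside 2.43% of all genes. Of 37 testis-specific kinase and phosphatase genes, 4 fell and 1 rose (13.5% called), 18 lay above 0 and 19 below, with a median of -0.01 that turned to 0.04 with arrays centred on their medians. Prkar2a, a regulatory subunit of protein kinase A, was at 890 and 852 in MIWI +/KI and at 198 and 190 in MIWI -/KI (difference -2.17, SE 0.19, adjusted p = 0.00260, and 0.0554 without MIWI +/KI replicate 1). Prkx, a related kinase, moved the other way, from 177 and 229 to 636 and 516 (difference 1.51, SE 0.20, adjusted p = 0.0118, and 0.171 and 0.0761 without MIWI +/KI replicates 1 and 2). Neither gene's groups overlapped. Besides Tssk6, the other falls of the list were in Csnk1g2, a casein kinase gene (difference -1.47), and Tssk3 (-0.86). Dropping MIWI +/KI replicate 1 or 2 left 0 or 1 of the falls, and there were 8 when MIWI -/KI replicate 1 was dropped and 6 when either MIWI -/- array was. Of 36 genes of haploid energy metabolism, 3 fell and 0 rose (8.33% called), and 15 lay above 0. Oxct2a, the ketone-body enzyme of spermatids, fell most, from 2773 and 2549 to 656 and 532 (difference -2.17, SE 0.14, adjusted p = 0.000800), and kept the call in every alternative. Gapdhs was at 4257 and 4019 against 1704 and 1632 (difference -1.31, SE 0.19, adjusted p = 0.0188), and Hk1, a hexokinase gene, at 2745 and 2740 against 1681 and 1531 (difference -0.77, SE 0.11, adjusted p = 0.0165). With a gene's clusters averaged, Hk1 missed the threshold (limma adjusted p = 0.0976). Hk1 also lost the call without either MIWI +/- array, and Gapdhs without MIWI -/KI replicate 2. Both lost it without either MIWI +/KI array. The number of falls in the list was then 1, and it was 9 without MIWI -/KI replicate 1, and 5 without either MIWI -/- array. Of 36 heat shock protein genes of germ cells 3 fell and 0 rose (8.33% called), while 23 lay above 0 and the median was 0.21. The falls were in Dnajb8 (1888 and 1623 against 576 and 369; difference -1.92, SE 0.21, adjusted p = 0.00592), Hspa1l and Bag1 (difference -1.02). None of the 3 passed without either MIWI +/KI array, 3 heat shock genes rose and 5 fell without MIWI -/KI replicate 1, and 2 rose and 3 fell without either MIWI -/- array.

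In the piRNA pathway, the machinery that MIWI belongs to, 3 of 39 measured genes rose and 0 fell, and the median was 0.30. That is 7.69% called, against 2.43% of all genes. Besides Morc1 the 3 rises were Tdrd1, a Tudor-domain protein that holds PIWI proteins in germ granules, and Piwil2, the gene of the PIWI protein MILI. Tdrd1 was at 682 and 820 in MIWI +/KI and at 1699 and 2332 in MIWI -/KI (difference 1.41, SE 0.18, adjusted p = 0.0118). Piwil2 was at 628 and 662 against 1013 and 1142 (difference 0.74, SE 0.14, adjusted p = 0.0424). In both, all MIWI -/KI arrays lay above all MIWI +/KI arrays. Without MIWI +/KI replicate 1 or 2 only Morc1 passed of the 3 (adjusted p of 0.165 and 0.0874 for Tdrd1, and 0.395 and 0.336 for Piwil2). Of the 39 genes 11 rose and 2 fell without MIWI -/KI replicate 1, and 2 rose without MIWI -/KI replicate 2 or either MIWI +/- array. Piwil2 stands also in the list of spermatocyte markers, whose summed intensity was higher in MIWI -/KI. In the list of retrotransposon restriction and chromatin silencing, 7.89% of the 38 genes were called. Among 38 genes of retrotransposon restriction and chromatin silencing, Morc1 and Pphln1, of the HUSH silencing complex (412 and 446 against 899 and 864; difference 1.04, SE 0.16, adjusted p = 0.0215), rose. Peg10, an imprinted gene that derives from a retrotransposon, fell in that list (157 and 172 against 66.3 and 78.4; difference -1.19, SE 0.17, adjusted p = 0.0198). Only Morc1 of these 3 passed without either MIWI +/KI array or either MIWI +/- array, Morc1 and Peg10 without MIWI -/KI replicate 2, and 7 rises and 3 falls were called without MIWI -/KI replicate 1. LINE1 elements, the retrotransposons this series is about, are no named genes of the array and were not measured.

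RNA-binding and RNA-processing lists had few calls. The share called was 0% for small RNA machinery, 4.26% for mRNA storage and 2% for mRNA decay, against 2.43% of all genes. None of 23 small RNA machinery genes passed; Ago2, of the Argonaute proteins, had the smallest p at 168 and 176 against 291 and 262 (difference 0.68, SE 0.20, adjusted p = 0.141). Of 47 genes that store or translate mRNA in germ cells, Samd4 (1536 and 1548 against 840 and 735; difference -0.97, SE 0.14, adjusted p = 0.0155) and Cpeb3 (377 and 310 against 160 and 164; difference -1.08, SE 0.20, adjusted p = 0.0406) fell. Both encode proteins that repress mRNA translation, and both lost the call without either MIWI +/KI array and without either MIWI +/- array. The list's median of 0.03 turned to -0.03 after a further quantile normalisation. Of 50 genes of deadenylation, decapping and decay, Cnot8, a deadenylase gene, rose (103 and 118 against 202 and 230; difference 0.97, SE 0.16, adjusted p = 0.0269), and no member was called without either MIWI +/KI array, either MIWI +/- array or MIWI -/KI replicate 2. Without MIWI -/KI replicate 1 the storage list had 6 rises and 4 falls, the decay list 7 rises and the small RNA list 2 rises.

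Stress and cell death lists held scattered calls. The share called was 6.38% for p53 targets and cell death, 7.69% for endoplasmic reticulum stress and 0% for interferon genes. Of all genes it was 2.43%. Of 47 p53 target and cell death genes, Gadd45b, Sesn1 (105 and 116 against 211 and 215; difference 0.95, SE 0.15, adjusted p = 0.0250) and Pmaip1, which promotes apoptosis (66.2 and 78.9 against 120 and 133; difference 0.80, SE 0.16, adjusted p = 0.0496), rose and 0 fell. Only Gadd45b kept the call without MIWI +/KI replicate 1 or 2, without either MIWI +/- array or without MIWI -/KI replicate 2. The median of this list, 0.06, turned to -0.02 after a further quantile normalisation. Of 52 genes of endoplasmic reticulum and oxidative stress, 3 rose against the large fall of Herpud1. Dnajc3, a cochaperone of the endoplasmic reticulum, was at 755 and 774 in MIWI +/KI and at 1815 and 2101 in MIWI -/KI (difference 1.35, SE 0.13, adjusted p = 0.00334). Pdia4, a disulphide isomerase gene, and Edem1, which helps remove misfolded glycoproteins, rose by 1.13 and 0.92 on the log2 scale. All 3 rises were lost without either MIWI +/KI array, with adjusted p of 0.0788 and 0.0686 for Dnajc3, and Herpud1 kept its call. Without either MIWI +/- array 1 of the 3 rises passed, and without MIWI -/KI replicate 2, 2 did. None of 42 interferon and nucleic acid sensing genes was called, the median was -0.13, and Ccl5, a chemokine gene, came closest at 141 and 111 against 70.4 and 66.9 (difference -0.87, SE 0.17, adjusted p = 0.0546).

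The proteasome, ribosomal and respiratory chain lists had medians above that of all genes, with few single calls. Called were 4.17%, 1.69% and 1.39% of their members, against 2.43% of all genes. Of 48 proteasome genes 41 had differences above 0, the median was 0.40, and Psmc1 (363 and 350 against 632 and 857; difference 1.05, SE 0.18, adjusted p = 0.0357) and Psmd6 (685 and 684 against 1220 and 1443; difference 0.95, SE 0.15, adjusted p = 0.0259) rose. Both are subunits of the cap that feeds proteins into the proteasome. Of 59 cytosolic ribosomal protein genes 46 lay above 0, the median was 0.25, and Rpl4 rose (difference 0.75, SE 0.14, adjusted p = 0.0453). Of 72 respiratory chain genes 59 lay above 0, the median was 0.26, and Uqcrc2 rose (difference 0.89, SE 0.14, adjusted p = 0.0262). None of these 4 calls held without MIWI +/KI replicate 1, MIWI +/KI replicate 2 or MIWI -/KI replicate 2, nor without either MIWI +/- array. Without MIWI -/KI replicate 1, 9 proteasome genes rose and 1 fell, and without either MIWI -/- array 5 proteasome and 4 ribosomal genes rose. In MIWI -/- against MIWI +/- the medians of the 3 lists were 0.02, -0.16 and 0.01.

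Markers of other cells gave few calls of their own. Called were 4.65% of spermatocyte, 2.63% of Sertoli cell, 6.67% of blood and 5.41% of stromal markers, against 2.43% of all genes. The share was 5.56% for spindle genes, 7.69% for cystatins, 5.41% for ion channel genes and 4% for acrosome genes. Of 43 spermatocyte markers, Brca2, a recombination gene, and Piwil2 rose, and the median was 0.29. Brca2 was at 262 and 296 in MIWI +/KI and at 578 and 833 in MIWI -/KI (difference 1.32, SE 0.20, adjusted p = 0.0201). Of 54 genes of meiotic spindle and cell division, Hmmr, a spindle gene (195 and 236 against 507 and 882; difference 1.64, SE 0.26, adjusted p = 0.0250), and Ccne1, a cyclin gene (171 and 185 against 329 and 370; difference 0.97, SE 0.15, adjusted p = 0.0232), rose. Espl1, the gene of the protease that separates sister chromatids, fell (689 and 710 against 382 and 374; difference -0.89, SE 0.16, adjusted p = 0.0365). None of these calls held without either MIWI +/KI array or without either MIWI +/- array. Without MIWI -/KI replicate 1, 12 spermatocyte markers and 14 spindle genes rose, and without MIWI -/KI replicate 2, 1 of each did.

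Of 38 Sertoli cell markers 34 lay below 0, the median was -0.28, and Nr0b1, a nuclear receptor gene, fell (154 and 232 against 84.7 and 84.4; difference -1.16, SE 0.21, adjusted p = 0.0395). That call was lost without either MIWI +/KI array, either MIWI +/- array or MIWI -/KI replicate 2, and 9 Sertoli markers fell without MIWI -/KI replicate 1. Of 30 blood and macrophage markers, the antigen presentation genes Cd74 (101 and 93.6 against 50.2 and 46.5; difference -1.01, SE 0.16, adjusted p = 0.0248) and H2-Ab1 (difference -1.01, SE 0.19, adjusted p = 0.0441) fell. Neither passed without 1 of the MIWI +/KI or MIWI +/- arrays or without MIWI -/KI replicate 2, 1 did without either MIWI -/- array, and the list's summed intensity was 3466 and 3339 in MIWI +/KI and 3147 and 2949 in MIWI -/KI. Of 37 peritubular, vascular and stromal markers, 2 actin genes of smooth muscle parted. Actg2 fell from 998 and 917 to 320 and 287 (difference -1.66, SE 0.17, adjusted p = 0.00525), and Acta2 rose from 172 and 158 to 394 and 380 (difference 1.23, SE 0.15, adjusted p = 0.00950). Both calls were lost without either MIWI +/KI array, with adjusted p of up to 0.0995 for Actg2 and 0.158 for Acta2. No marker of spermatogonia (34 measured), Leydig cells (19) or epididymis (24) was called; without MIWI -/KI replicate 1, 1 spermatogonia marker rose, 1 fell and 1 epididymis marker rose, and 1 Leydig cell marker rose without either MIWI -/- array. Of 13 cystatins, which inhibit cysteine proteases, Cstl1 fell (490 and 403 against 129 and 169; difference -1.59, SE 0.19, adjusted p = 0.00861), and it lost the call without either MIWI +/KI array. Of 37 ion channel and calcium handling genes, Car2 and P2rx2, an ATP-gated channel gene (difference -1.26, SE 0.22, adjusted p = 0.0348), fell, and only Car2 passed without either MIWI +/KI array. Of 50 acrosome genes Tex101 rose and Prss55, a serine protease gene (1259 and 1294 against 676 and 531; difference -1.09, SE 0.19, adjusted p = 0.0348), fell, and neither passed without either MIWI +/KI array. Without MIWI -/KI replicate 1 the acrosome list had 6 rises and 4 falls and the ion channel list 7 rises and 3 falls; Prss55 also missed the threshold without MIWI -/KI replicate 2 or either MIWI +/- array.

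**Figure D3:**
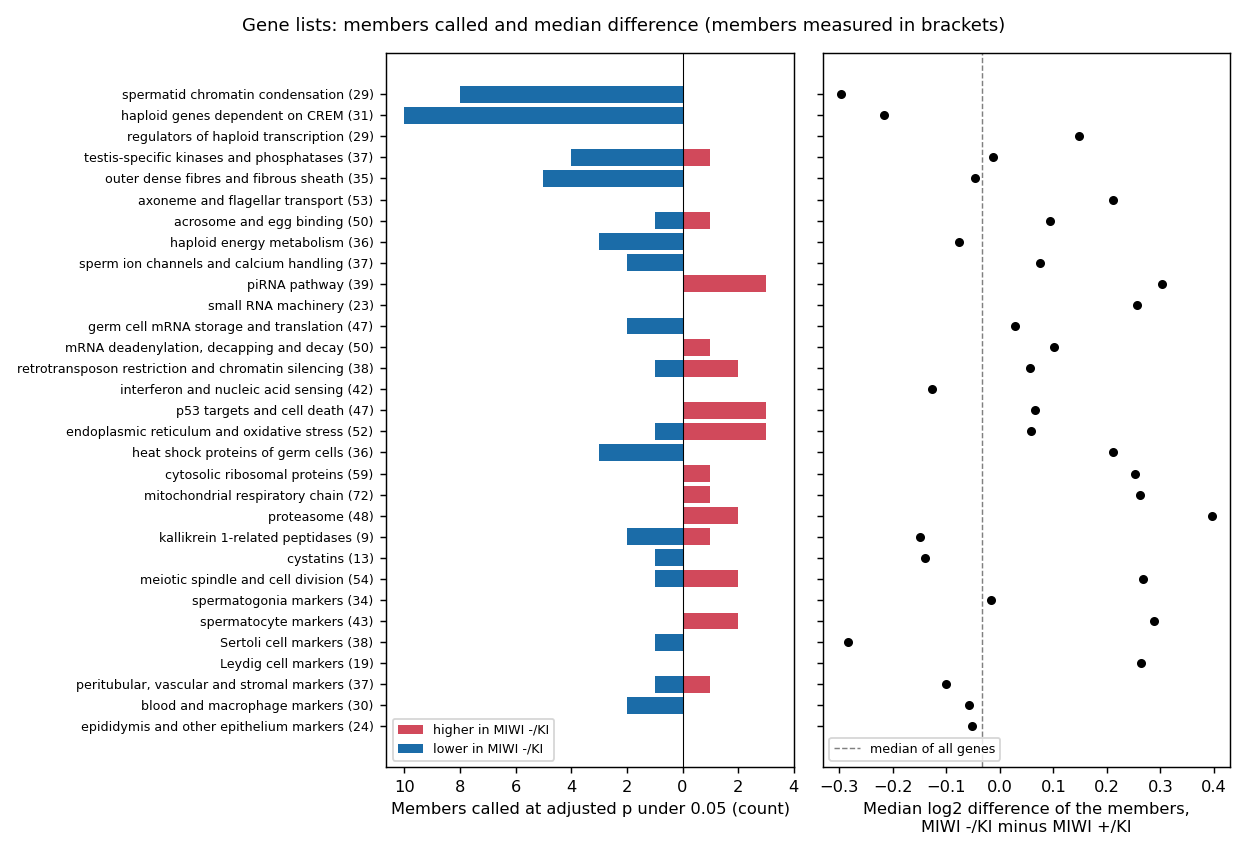
Left, number of members called at adjusted p under 0.05 in each of 31 gene lists (higher to the right in red, lower to the left in blue); right, median log2 difference of the list's measured members, MIWI -/KI minus MIWI +/KI, with the median of all genes, -0.03, dashed. Falls are most numerous among CREM-dependent genes (10 of 31) and chromatin condensation genes (8 of 29), and the proteasome list has the highest median, 0.40.

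Some called genes lay side by side on a chromosome and moved the same way. There were 10 such runs by RefSeq gene order among the measured genes. With 1.29% of all genes called lower and 1.14% called higher, some runs arise among unrelated genes. How many to expect was not worked out, so the count is not read as a result. Tnp2, Prm3 and Prm2 formed the 1 run of 3 genes and fell together, and Prss55 lay beside Prss51, another serine protease gene, which fell from 401 and 370 to 147 and 129 (difference -1.49, SE 0.15, adjusted p = 0.00431). Olfr212 and Olfr213, neighbouring and related odorant receptor genes, rose together, Olfr212 from 77.4 and 73.7 to 232 and 277 (difference 1.75, SE 0.22) and Olfr213 from 55.1 and 52.2 to 147 and 154 (difference 1.49, SE 0.15). Whether probes of such near-identical genes read each other was not examined.

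The comparison of MIWI -/- with MIWI +/-, which removes a wild-type allele beside a null allele and shares no array with the one above, called 1222 genes (6.13%), 519 higher (2.6%) and 703 lower (3.53%). With replicate 1 or 2 of MIWI +/- left out that count was 413 or 375. With one or the other MIWI +/KI array left out it was 656 or 654, and with a MIWI -/KI array left out 2032 or 2043. It was 582 when MIWI -/- replicate 2 was dropped. Of the 258 genes that fell in MIWI -/KI, 225 fell there too, 87.2% of the former and 32% of the latter falls. Of the 227 that rose, 129 rose there too, 56.8% and 24.9%. By sign alone 95.3% of the falls and 96% of the rises pointed the same way, against 48% of all genes below 0 and 52% above 0 in that comparison. The falls were larger beside the null allele, with a median of -1.89 there and -1.30 in MIWI -/KI for the same 258 genes, of which the second value was used to choose them. The rises went the other way, with medians of 0.87 there and 1.07 in MIWI -/KI for the same 227 genes. These genes were chosen by the second value, which alone favours a larger median in MIWI -/KI. Genes called higher in MIWI -/- against MIWI +/- had a median of 0.48 in MIWI -/KI against MIWI +/KI. A larger rise beside the knock-in was therefore not shown. Bpifa3 is an example: it was at 1828 and 1376 in MIWI +/-, 73.0 and 74.0 in MIWI -/-, and differed by -4.43 there and by -2.76 in the knock-in pair. For Bpifa3 both knock-in/wild-type arrays, at 809.5 and 728, lay below both MIWI +/- arrays. Itpr3os differed about equally in both, by -4.18 and -4.30. The 354 genes called the same way in both became 42 or 44 when a MIWI +/KI array was left out and 150 or 147 when a MIWI +/- array was. Dropping MIWI -/KI replicate 1 raised them to 764, and dropping its replicate 2 left 235.

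**Figure D4:**
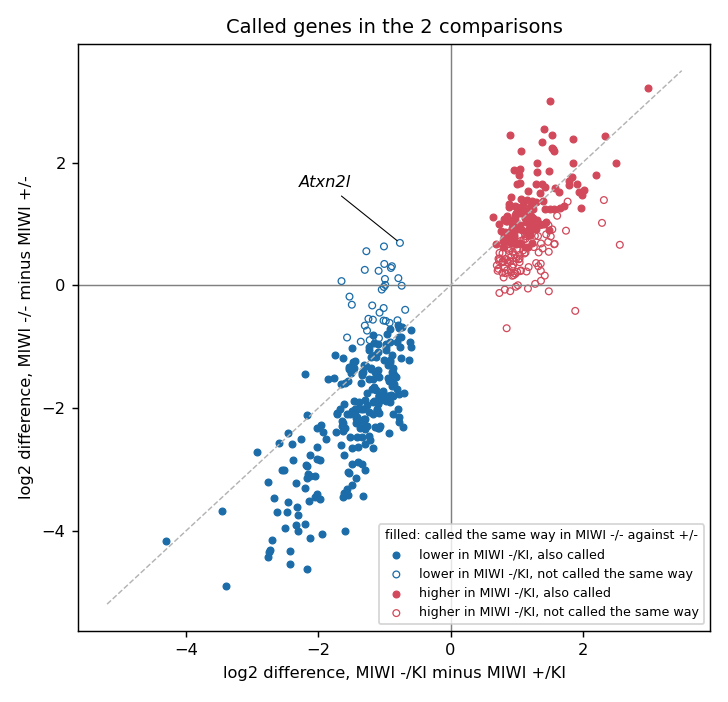
The 485 genes called in MIWI -/KI against MIWI +/KI, with the log2 difference of that comparison on the x axis and that of MIWI -/- against MIWI +/- on the y axis; filled points were called the same way in both, and the dashed line marks equal differences. Of the 258 genes to the left, 246 lie below 0 on the y axis, and Atxn2l is the 1 gene called in opposite directions.

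The test of the difference between these 2 differences called 0 genes with limma. At an unadjusted p under 0.05 there were 2585, and the smallest adjusted p was 0.0711, so that a larger effect beside a null allele was not established for any single gene. The 5 genes of smallest p were Tex55, Gm136, Lrrc61, Tex50 and Acte1. Tex55 was at 336 and 371 in MIWI +/KI and 211 and 249 in MIWI -/KI, and at 1096 and 1191 in MIWI +/- and 121 and 156 in MIWI -/-, a difference of -0.62 against -3.06. Lrrc61 differed by 0.76 and 2.99, Gm136 by -2.18 and -4.62, Tex50 by -0.44 and -2.45, and Acte1 by -2.43 and -4.54. In each of the 5 the difference in the knock-in pair was the smaller one. The count of 0 became 48 without MIWI -/KI replicate 1 and 241 without MIWI -/- replicate 1.

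Among the called genes, those whose 2 MIWI -/KI arrays lay farthest apart were Hmgb1-rs17, Zfp729b, Zfp389, Hltf and Exoc6. Hmgb1-rs17, a copy related to the chromatin gene Hmgb1, was at 912 and 1007 in MIWI +/KI and at 138 and 341 in MIWI -/KI (difference -2.15, SE 0.37, adjusted p = 0.0348). Hltf, of a DNA translocase in replication repair, was at 36.9 and 39.5 against 71.9 and 137 (difference 1.38, SE 0.27, adjusted p = 0.0494). Zfp729b was at 27.1 and 30.3 against 95.2 and 215, and Zfp389 at 63.5 and 81.5 against 165 and 367. Even in these genes the groups did not overlap, and none of the 5 kept its call without either MIWI +/KI array.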

How the data were processed

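Per the labels, total RNA of round spermatids was labelled with biotin and hybridised to Affymetrix arrays, 1 per preparation. The authors deposited intensities per transcript cluster, summarised with RMA per the submitters' processing notes; its version and the genome build are not given in the sources used here. The values are on a linear scale, so log2 was taken. In 8 cells a value over 100 times its row's median on the other arrays was treated as missing. Of the called genes, 1 (Mbd2) has such a cell, in MIWI +/-. Array medians lay between 66.6 and 71.8, and 2 arrays a genotype limit the precision.

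One model in limma 3.58.1 (R 4.3.3) gave each of the 4 genotypes a mean over all 8 arrays, with a variance trend (residual degrees of freedom 4, prior 3.98). All p-values are two-sided and were adjusted by Benjamini-Hochberg over 35512 clusters, with 0.05 as threshold. SE is limma's moderated standard error. Names come from the platform annotation; a gene was read on its single-symbol cluster of highest mean, which gave 19938 genes. The fit kept clusters that the annotation gives no gene, control probes possibly among them, and deposited flags of detection were not used.

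Named were the 15 largest rises and falls among called genes without overlap, skipping uncharacterised loci (1 and 4 skipped), up to 5 called members of each of 31 lists or, with none called, the smallest p, the 5 smallest p of the difference test, opposite calls, the 5 largest gaps between MIWI -/KI arrays, and Piwil1. Genes named outside this rule are said to be so. The comparison, lists and rule were chosen with earlier results of these data known, so lists are described by counts and medians. Promoter windows are from RefSeq, GRCm38.p6. Tested on simulated data for this comparison over 35512 clusters, the script called 38 of 67 clusters changed by 2-fold (56.7%), 67 of 67 by 4-fold and 66 of 66 by 8-fold, with 12 false calls. The simulation gave all arrays of a cluster the same, independent spread. In the data the MIWI -/KI arrays differed more than the others, so these figures check the script and do not give its error rates here. The same-numbered replicates of the groups compared were not paired by the labels.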

Additional observations from a re-analysis of the deposited data

Results flagged for a closer look

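Atxn2l, a gene of RNA granules, was the 1 gene called in opposite directions in the 2 comparisons that remove a wild-type allele. It was at 3289 and 3141 in MIWI +/KI and at 1860 and 1919 in MIWI -/KI (difference -0.77, SE 0.13, adjusted p = 0.0360), and at 1779 and 1852 in MIWI +/- and 2582 and 3326 in MIWI -/- (difference 0.69, adjusted p = 0.0273). Every array moved down in the first pair of genotypes and up in the second, and the difference between the differences was -1.46, which did not pass limma's test over all clusters (SE 0.19, adjusted p = 0.0721). The first call was lost in 9 of the 19 alternatives, with adjusted p of up to 0.326: without either MIWI +/KI array, either MIWI +/- array or MIWI -/KI replicate 2, with centring on array medians, no intensity trend or array weights, and in a fit of the compared groups alone.

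Transcript cluster 10340088, listed with no gene, was the 1 cluster for which that test passed (difference between the differences -2.15, SE 0.17, limma adjusted p = 0.0461). It was at 41.2 and 41.8 in MIWI +/KI and 15.3 and 15.1 in MIWI -/KI, and at 14.3 and 13.8 in MIWI +/- and 21.6 and 24.2 in MIWI -/-. All 8 values lie under the median intensity of an array. Groups of 2 arrays are too small for a check of single outlying arrays.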

How the results depend on the processing

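Over the 19 alternatives, 0 of the 86 named called genes changed direction, 23 kept the call in every one and 63 lost it in at least 1. The 485 calls (227 higher, 258 lower) became 840 (432 and 408) with dim clusters left out and 1384 (748 and 636) when a gene's clusters were averaged. Array weights gave 252 (100 and 152), and a fit of the compared groups alone 100 (19 and 81). With 1 array left out they ranged from 42 to 2664 (rises 6 to 1577, falls 36 to 1087); where that leaves 1 array of a genotype, it is assumed to vary like the others. The 1222 calls of MIWI -/- against MIWI +/- became 2044 with clusters averaged and ranged from 375 to 2043 with 1 array left out. The 354 shared calls became 674 with the mean of clusters, 229 with array weights and 86 in a fit of the compared groups alone, and ranged from 42 to 764. The 0 calls of the difference test became 94 with dim clusters left out and 590 with the mean of clusters, and ranged from 0 to 241. The mean of clusters and the filter on dim clusters test fewer features and also estimate the spread anew on those features. With the mean of clusters, limma's adjusted p of Stambp went from 0.000800 to 1.16e-06. What part each of these has in the counts was not tested. The other settings (outlying cells kept or divided by 1000, a further quantile step, centring, no trend, robust variance) left the count between 374 and 501. With the replicate number as a replicate block, 391 genes were called (163 higher, 228 lower); same-numbered arrays of the groups compared deviated together with r = 0.12 and the labels give the number no meaning, so it was not taken as a pairing.

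With 2 arrays a genotype, the spread is estimated across all 4 genotypes, and the MIWI -/KI arrays, which differ most, carry this comparison. No detection call was used for low intensities.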
